A study of Mus musculus with 12 samples.

Results

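The genes described here are 36 protein-coding genes whose messenger RNA was above control in spinal cord microglia of mice in the acute phase of chronic-relapsing experimental autoimmune encephalomyelitis (crEAE) and below control in both later phases, remission and chronic disease. They were selected on these measured values. A gene needed a control mean of at least 15 CPM (counts scaled to a total of 1e6 per library), an acute mean of at least 1.3 times the control mean, and remission and chronic means of at most 0.77 times it. Of 7768 protein-coding genes at the control minimum, 1834 met the acute condition, 1458 the remission condition and 1699 the chronic condition, and 36 met all of them. Comparisons with control are therefore described without a test, and chronic against remission, a difference that is not itself a condition, was tested although the selection bounded both of its means.

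The study sorted microglia from the spinal cord of Biozzi ABH mice, a strain in which EAE follows a relapsing course, and sequenced RNA from 3 control mice and from 3 crEAE mice in each of the acute, remission and chronic phases. Sorted cells carried CD11b and a middle level of CD45, and cells with Ly-6C were gated out. The age and sex of the mice, the days of collection and what control mice received were not given in the sources used here, and no genotype other than the strain is labelled. Within each group the libraries are numbered 1 to 3 as names only, so a number shared by libraries of different groups pairs nothing. Sample titles end in a letter and a number, 1 or 2, whose meaning is not given: the number is 2 for acute libraries 1 and 2, control library 1 and remission library 1, and 1 for the others. Counts entering the levels were 1712663 to 2496096 in control, 1266782 to 1459329 in acute, 1442371 to 2022456 in remission and 1491413 to 2095754 in chronic libraries. The smallest count of any of the 36 genes in a library was 2 and the largest 4437. Mitochondrially encoded genes and 6 abundant features, which were left out of every total, differed between phases: the 6 features held 48.35 to 56.24% of all counts in control libraries and 62.36 to 64.11% in acute libraries, and the mitochondrial genes 1.92 to 2.29% and 5.18 to 5.74%.

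Microglia are the resident macrophages of brain and spinal cord, and EAE is an autoimmune attack on myelin in which blood monocytes and T cells enter that tissue. When macrophages move, engulf or adhere, they rebuild their cortical actin network, a process run by actin-binding proteins and by small GTPase switches such as Rac1 and Cdc42. Chemokine receptors, C-type lectins and interleukin-1 signals are among the inputs that start such responses.

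The gate was checked against markers, and the values touch all that follows. Ptprc, which encodes CD45, was at 1161 ± 125 CPM in control and 1122 ± 54.8 in acute libraries (SD, n = 3, as for every ± on a level below). Of 24 homeostatic microglia genes, Upk1b was at 0 in every group, and the list summed to 41210 to 46410 CPM in control, 8781 to 13070 in acute, 30410 to 31110 in remission and 27780 to 30290 in chronic libraries. P2ry12, a microglial receptor for purine nucleotides, was at 1865 ± 222 CPM in control and 176 ± 50.2 in acute libraries. Tmem119, another microglial marker, was at 2672 ± 134 and 495 ± 128 CPM, and Cx3cr1, the fractalkine receptor, at 6034 ± 232 and 1142 ± 381 CPM. Itgam, which encodes CD11b, was at 363 ± 41.9 CPM in control and 228 ± 56.2 in acute libraries.

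Markers of recruited monocytes were higher in acute libraries despite the Ly-6C gate. Ly6c2 was at 0 in all control libraries and at 202, 196 and 114 CPM in the acute libraries. Without Fn1, which is itself among the 36 genes, 14 monocyte and recruited macrophage markers summed to 57.88 to 96.34 CPM in control, 2598 to 3825 in acute, 76.26 to 103.3 in remission and 82.04 to 138.8 in chronic libraries. Of these, 6, with Ly6c2, Chil3, Ms4a8a, S100a4 and F10 among them, were at 0 in every control library and none was at 0 throughout the acute group. The 12 T and NK cell markers summed to 0 to 1.91 CPM in control and 146.8 to 234.3 in acute libraries, and 6 border macrophage markers to 2.003 to 2.87 and 176.0 to 296.8 CPM. Of 12 neutrophil markers, 8 were at 0 in every control library, S100a8, S100a9 and Ly6g among them, and none was at 0 throughout the acute group. Of the 10 that were tested, 9 were called higher in acute than control libraries and Csf3r, the G-CSF receptor, lower (edgeR quasi-likelihood test, Benjamini-Hochberg adjusted p under 0.05), against 23.4% higher and 20.5% lower of all 12536 genes tested. Csf3r was at 1083 ± 143.7 CPM in control and 372.3 ± 56.12 in acute libraries, and the sums of all 12 overlapped, at 950.1 to 1237 and 742.8 to 1535 CPM. Oligodendrocyte markers summed to 249.6 to 306.6 CPM in control and 1207 to 1628 in acute libraries (7 of 9 tested called higher), astrocyte markers to 178.3 to 218.6 and 529.0 to 666.3 CPM (4 of 7), and erythroid markers to 2.919 to 8.814 and 51.31 to 186.6 CPM (3 of 3). Dendritic cell markers summed lower in acute libraries, at 127.5 to 150.8 against 542.0 to 599.9 CPM, and so did B and plasma cell markers, at 59.21 to 98.68 against 146.6 to 210.5 CPM. The part of RNA from these other cell types in the acute levels of the 36 genes was not tested, and in bulk RNA a change in the number of cells of a type cannot be told apart from a change in RNA per cell.

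As a group, the 36 genes had a median acute level of 1.67 times control, from 1.31 for Ppp2cb to 2.84 for Marcksl1, with Fn1 far above at 86.1. Their median level was 0.666 times control in remission (0.141 to 0.747) and 0.651 times in the chronic phase (0.233 to 0.764). Over all 7768 genes the same medians were 0.938, 0.945 and 0.937. The acute level was at least 2-fold above control for 13 genes, and the mean of both later phases was at most 0.5 times control for 9. All 3 acute libraries lay above all 3 control libraries for 28 of the 36 genes, against 24% of all genes at the control minimum. All remission libraries lay below all control libraries for 26 genes (21.3% of all genes) and all chronic libraries for 21 (23.4%), and 14 genes kept all of these separations. Since the selection used the same values, nothing is read from these counts. The selection also depended on 1 library for most of the genes: with each of the 12 libraries left out in turn, 11 genes met the conditions every time (Ccr1, Ccnd2, Lbr, Fam107b, Hk1, Arhgap31, Arrdc3, Ece1, Atp2a3, Nhsl2 and Cnn2), and the other 25 failed at least once.

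**Figure D1:**
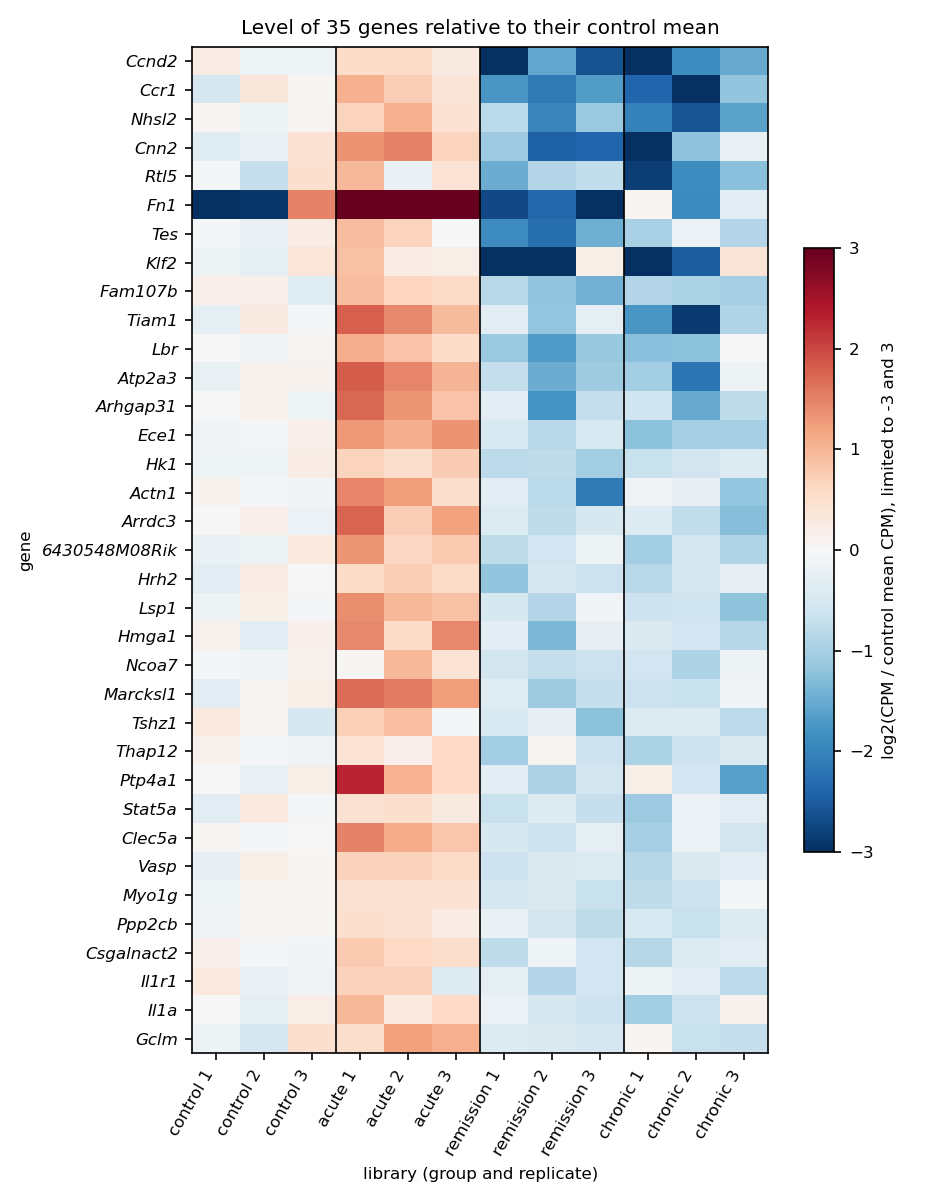
Level of 35 of the 36 genes (rows) in each of the 12 libraries (columns) as log2 of CPM over the gene's control mean, with red above and blue below and values limited to -3 and 3. Acute columns are mostly red and the later columns mostly blue, and Fn1 is apart, with control libraries 1 and 2 far below control library 3.

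The conditions had close neighbours on both sides. For acute over control, Ppp2cb (1.307) and Stat5a (1.320) were just inside, and Gbe1 (1.2996), Ccdc71l (1.299) and Polr2c (1.292) just outside. For remission over control, Il1a (0.747), Thap12 (0.733) and Gclm (0.732) were inside, and Itpr1 (0.777), Malt1 (0.778) and Zdhhc18 (0.785) outside. For chronic over control, Il1r1 (0.764), Gclm (0.763) and Il1a (0.743) were inside, and Mtmr6 (0.771), Ruvbl1 (0.775) and Prkx (0.775) outside.

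The scale of the counts matters to the acute condition. With mitochondrially encoded genes and the 6 features put back into the totals, 24 genes met the conditions, and 8 of these were among the 36. The acute mean was then below the control mean for 9 of the 36, with Myo1g, Ccnd2, Ppp2cb, Stat5a, Thap12, Rtl5, Il1r1 and Klf2 among them.

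Promoters were examined because the 36 genes were chosen to move together. RefSeq promoter windows of GRCm38.p6 matched 28 of the 36 genes by symbol, using the first listed start of each gene. The AP-1 motif TGANTCA, searched on both strands like every motif here, occurred in 5 of these 28 windows (17.9%). It occurred in 4.4% of 6279 windows of genes at the control minimum and in 7.9% of all 27025 windows. AP-1 is the dimer of FOS and JUN family proteins. The 5 stretches are shown 5′ to 3′ on the gene's own strand, with the motif in capitals, and are the members of the set that share these letters.
Lbr, chr1:181842403-181842489, minus strand: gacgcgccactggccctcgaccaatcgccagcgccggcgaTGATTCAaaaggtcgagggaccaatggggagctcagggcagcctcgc
Fam107b, chr2:3713382-3713457, plus strand: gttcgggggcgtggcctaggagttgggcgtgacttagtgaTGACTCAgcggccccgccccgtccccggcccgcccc
Il1a, chr2:129309973-129310024, minus strand: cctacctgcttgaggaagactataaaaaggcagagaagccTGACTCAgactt
Csgalnact2, chr6:118139334-118139390, minus strand: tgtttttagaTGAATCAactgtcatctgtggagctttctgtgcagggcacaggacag
Tiam1, chr16:89974700-89974754, minus strand: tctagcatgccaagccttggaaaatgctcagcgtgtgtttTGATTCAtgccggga
The first base of the motif lay 48 bases before the start in Lbr, 36 in Fam107b, 12 in Il1a, 240 in Csgalnact2 and 15 in Tiam1. This start lies inside the annotated gene in Lbr (645 bases from its 5′ end), Fam107b (142970 bases) and Tiam1 (169070 bases), and at its 5′ end in Il1a and Csgalnact2. The Il1a stretch also holds a TATA box, the motif TATAAA, which 3 of the 28 windows had (10.7%; 6.0% of windows at the control minimum and 14.2% of all windows).

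Other motifs were counted in the same windows. The NF-kB motif GGANNNTCC was found in the window of Ccr1 alone (3.6%), against 10.1% of windows at the control minimum and 8.6% of all, and the stretch is shown for contrast with the AP-1 group.
Ccr1, chr9:123968717-123968805, minus strand: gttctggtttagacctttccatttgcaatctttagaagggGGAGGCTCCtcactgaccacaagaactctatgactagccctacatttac
The GC box GGGCGG was in 64.3% of the 28 windows, 68.1% at the control minimum and 35.9% of all. CCAAT was in 35.7%, 38.0% and 37.9%. The PU.1 motif GAGGAAG was in 10.7%, 14.3% and 13.5%, and the promoter-type ETS core CCGGAAG in 7.1%, 21.3% and 9.1%. C/EBP, searched as TTGCNNAA, gave 10.7%, 7.6% and 10.8%, the interferon-stimulated response element GAAANNGAA 7.1%, 7.0% and 8.6%, the E-box CACGTG 3.6%, 11.2% and 7.2%, and the heat shock core GAANNTTC 3.6%, 5.4% and 8.0%. No window of the 28 held the letters of the CRE (TGACGTCA), the gamma-activated site (TTCNNNGAA), the NRF1 motif (GCGCATGCG) or the EGR motif (GCGTGGGCG). With 28 windows, 1 window is 3.6%, and a match is a description of letters only.

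By roles assigned by hand, with no share counted over other genes, 8 of the 36 genes act on actin and cell shape. Myo1g (ENSMUSG00000020437, chr11:6506548-6520965, minus strand, GRCm38), a class I myosin of blood-cell membranes, measured 160.3, 183 and 184 CPM in controls, then 242, 241 and 238 (acute), 123, 130.1 and 110.2 (remission) and 103, 112 and 172 (chronic). Its acute libraries lay above every control library, with an SD of 1.88 CPM, and chronic library 3 reached into the control range. Vasp (ENSMUSG00000030403, chr7:19256929-19271817, minus strand), which speeds the growth of actin filaments at the leading edge, measured 139, 188 and 172 CPM in controls, then 267, 268 and 247 (acute), 108, 123.9 and 126 (remission) and 91.4, 123.6 and 135 (chronic). No Vasp level of 1 phase overlapped the control levels, and the means were 1.57, 0.717 and 0.7 times the control mean in acute, remission and chronic mice. Per kilobase of exon, Vasp had the highest control level of the 36 genes, 63.6 CPM per kilobase, and Nhsl2 the lowest, 1.69.

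Lsp1 (ENSMUSG00000018819, chr7:142460809-142494867, plus strand), a leukocyte F-actin binding protein, measured 68.9, 87.1 and 74.7 CPM in controls, then 202, 152 and 141 (acute), 54.9, 41.8 and 72.1 (remission) and 50.4, 51.1 and 33.5 (chronic). Acute libraries lay above control, all chronic libraries below it, and remission library 3 inside the control range. Marcksl1 (ENSMUSG00000047945, chr4:129513581-129515985, plus strand), a small relative of the actin and membrane binding protein MARCKS, measured 29.2, 38.8 and 42.6 CPM in controls, then 118, 109 and 87.6 (acute), 28.7, 17.6 and 22.9 (remission) and 23.4, 23.4 and 34.9 (chronic). Its acute mean, 2.84 times control, was the highest after Fn1. Actn1 (ENSMUSG00000015143, chr12:80167547-80260371, minus strand), which encodes the filament crosslinker alpha-actinin, measured 22.4, 20.6 and 19.9 CPM in controls, then 57.6, 49.8 and 30 (acute), 16.8, 11.9 and 4.85 (remission) and 19.3, 17.6 and 9.39 (chronic). Its later libraries lay below every control library, remission library 3 lowest.

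Cnn2, Tes and Nhsl2 are the other actin and cell shape genes of the set. Cnn2 (ENSMUSG00000004665, chr10:79988584-79996062, plus strand), a calponin that binds actin filaments, measured 19.6, 22.01 and 33.9 CPM in controls, then 64.4, 70.2 and 40.3 (acute), 11.9, 4.64 and 4.85 (remission) and 2.34, 10.97 and 21.5 (chronic). Acute libraries were above control, remission libraries below it, and chronic library 3 reached the control range. Tes (ENSMUSG00000029552, chr6:17065149-17105828, plus strand), a LIM domain protein of focal adhesions, measured 33.6, 29.7 and 40.3 CPM in controls, then 65.1, 54.7 and 34.7 (acute), 9.39, 7.23 and 12.5 (remission) and 17.6, 30.5 and 18.8 (chronic). Acute library 3 fell within the control range, all remission libraries lay far below control, and chronic libraries lay between remission and control with library 2 inside the control range. Nhsl2 (ENSMUSG00000079481, chrX:101849385-102092055, plus strand), a relative of the Nance-Horan syndrome protein, measured 29.6, 25.8 and 30.4 CPM in controls, then 45.2, 60.3 and 38.7 (acute), 16.3, 7.23 and 13.2 (remission) and 7.03, 4.77 and 9.39 (chronic). It kept every separation, and its chronic mean was 0.247 times control.

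Both regulators of small GTPases were above control in every acute library. Tiam1 (ENSMUSG00000002489, chr16:89787111-90143769, minus strand), which loads Rac1 with GTP, measured 26.04, 37.8 and 29.8 CPM in controls, then 108, 84.2 and 59.99 (acute), 24.7, 13.9 and 25.6 (remission) and 9.38, 4.29 and 16.8 (chronic). Arhgap31 (ENSMUSG00000022799, chr16:38598340-38713274, minus strand), which makes Cdc42 and Rac1 hydrolyse their GTP, measured 40.9, 44.97 and 37.4 CPM in controls, then 135, 102 and 74.2 (acute), 32.6, 11.9 and 24.96 (remission) and 26.96, 14.3 and 24.1 (chronic). Tiam1 and Arhgap31 thus act in opposite directions on Rac1, and their acute means were 2.697 and 2.53 times control. Chronic means were 0.325 and 0.531 times control, and no remission or chronic library of either reached the control range.

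Vasp and Actn1 belong to a list of 36 actin cytoskeleton and motility genes, chosen with earlier results of these data known, which holds none of the other 6 actin and cell shape genes of the set, and the rest of the list was tested. Of the 33 others that were tested, 28 were called higher in acute than in control libraries and 2 lower, against 23.4% and 20.5% of all genes tested. In remission 2 were higher and 2 lower than control (6.06% and 3.19% of all genes), and in the chronic phase 9 were higher and none lower (9.69% and 4.95%), none being lower by DESeq2 or at an unadjusted p under 0.05 either. Median log2 fold changes of the 33 were 0.90, -0.08 and 0.25, beside 0.01, 0.02 and 0.00 over all genes. In chronic against remission libraries 6 were higher (Actb, Arpc2, Capg, Cfl1, Cotl1 and Iqgap1) and none lower (1.14% and 0.263% of all genes). DESeq2 also called 6 higher and none lower, 1 was lower at an unadjusted p under 0.05, and 3 were called higher without remission library 2 or chronic library 3 and none without remission library 3. Arpc5, a subunit of the Arp2/3 complex, was at 71.1 ± 9.77 CPM in control and 249 ± 15.4 in acute libraries (adjusted p = 1.44e-08, log2 fold change 1.84 ± 0.16 SE). Iqgap1, a scaffold that binds Rac1 and Cdc42, was at 45.6 ± 15.4 and 635 ± 82.8 CPM (adjusted p = 1.28e-08, log2 fold change 3.83 ± 0.25 SE), then at 55.5 ± 6.89 CPM in remission (adjusted p = 0.494) and 132 ± 42.7 in the chronic phase (adjusted p = 0.00032, log2 fold change 1.61 ± 0.24 SE). Cfl1, the filament-severing cofilin, was at 129 ± 16.2 and 392.4 ± 27.5 CPM (adjusted p = 6.02e-08, log2 fold change 1.64 ± 0.16 SE) and at 237 ± 64.05 CPM in the chronic phase (adjusted p = 0.000225, log2 fold change 0.96 ± 0.16 SE). Flna and Coro1a were the 2 genes called lower in remission, with adjusted p of 0.0452 and 0.0439, and neither call held with any 1 control or remission library left out (adjusted p up to 0.130 and 0.134), nor did that of Coro1a with the number in the titles as a covariate. Coro1c and Myo9b were the 2 called higher in remission, and Evl and Wasf2 the 2 called lower in the acute phase. These 6 were named after their values were seen.

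**Figure D2:**
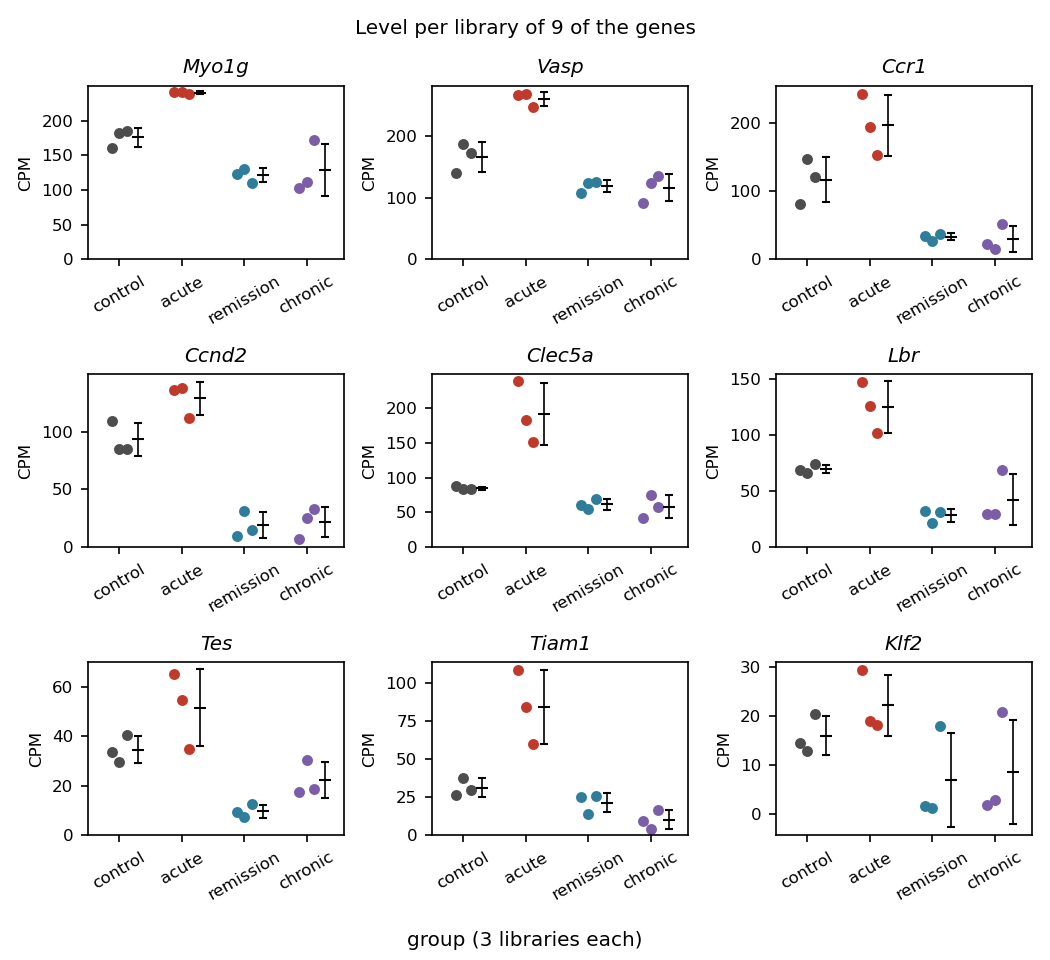
CPM per library for 9 of the 36 genes, with the mean and SD of 3 libraries beside the points in black. Ccr1, Ccnd2 and Tes have remission levels far below control, and in Klf2 library 3 of remission (18.03 CPM) and of the chronic phase (20.8 CPM) stand apart from the others of their group.

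Among receptors, Ccr1 (ENSMUSG00000025804, chr9:123962124-123968692, minus strand), a receptor for the chemokines CCL3 and CCL5, measured 81.7, 148 and 120.3 CPM in controls, then 243, 194 and 153 (acute), 34.6, 26.8 and 36.8 (remission) and 22.3, 14.8 and 51.6 (chronic). Every acute library lay above and every later library below the control libraries, and the later means were 0.281 and 0.254 times control. Clec5a (ENSMUSG00000029915, chr6:40574894-40585821, minus strand), a C-type lectin that signals through DAP12, measured 87.3, 83.2 and 83.5 CPM in controls, then 239, 183 and 152 (acute), 60.3, 54.7 and 69.3 (remission) and 42.2, 75.4 and 57.7 (chronic). Its controls agreed closely, with an SD of 2.29 CPM, and all later libraries were below them. Hrh2 (ENSMUSG00000034987, chr13:54192129-54236180, plus strand), the histamine H2 receptor, measured 47.3, 69.8 and 58.4 CPM in controls, then 86.3, 97.5 and 86.8 (acute), 25.7, 41.3 and 37.4 (remission) and 32.8, 41.5 and 49.6 (chronic). All acute libraries exceeded control, and chronic library 3 lay within the control range.

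Genes of the interleukin-1 system were present as ligand and receptor. Il1a, which encodes interleukin-1 alpha, had 49.3 ± 7.78 CPM in controls, then 77.8 ± 18.98 (acute), 36.8 ± 6.001 (remission) and 36.6 ± 15.8 (chronic), and remission library 1 (43.5 CPM) and chronic library 3 (54.3 CPM) lay in the control range. An annotated transcript on the other strand, Gm14023, shares 11.2% of the exon bases of Il1a and was itself at 21.02 CPM in control, and the library protocol names no step that keeps strand. Il1r1, the signalling receptor for interleukin-1, had 20.7 ± 3.98 CPM in controls, then 27.7 ± 10.3 (acute), 14.01 ± 2.73 (remission) and 15.8 ± 3.42 (chronic). Acute library 3 of Il1r1, at 15.8 CPM, was below every control library, and the gene met the conditions in only 6 of the 12 runs with a library left out, the fewest of the set.

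Relatives of these receptors and ligands were chosen by family after the 36 genes were known. Ccr2, the monocyte receptor for CCL2, rose from 7.61 ± 3.12 CPM in control to 335 ± 86.8 in acute libraries (adjusted p = 1.28e-11, log2 fold change 5.5 ± 0.27 SE). Ccr2 was not called in remission (adjusted p = 0.198) and was called lower than control in the chronic phase, at 2.18 ± 0.774 CPM (adjusted p = 0.029, log2 fold change -1.62 ± 0.48 SE). The chronic call was lost in 6 of 18 alternatives (adjusted p up to 0.247). Il1b rose from 9.17 ± 2.29 to 197 ± 63.1 CPM (adjusted p = 1.82e-08, log2 fold change 4.48 ± 0.33 SE) and was at 7.92 ± 2.89 CPM in remission (adjusted p = 0.875), where Il1a had a mean of 0.747 times control. Il1rn, the antagonist of the receptor, rose from 0.755 ± 0.391 to 117 ± 32.01 CPM (adjusted p = 4.48e-09, log2 fold change 7.13 ± 0.51 SE). Il1rn was not called in remission (adjusted p = 0.0858) and was above control in the chronic phase, at 8.66 ± 4.90 CPM (adjusted p = 0.00136, log2 fold change 3.46 ± 0.66 SE). Il1r2, the decoy receptor, rose from 0.914 ± 0.311 to 88.9 ± 43.9 CPM (adjusted p = 2.53e-06, log2 fold change 6.48 ± 0.63 SE). Il1r2 was not called in remission or the chronic phase (adjusted p = 0.857 and 0.261), nor was Il1b in the chronic phase (adjusted p = 0.81).

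Genes of matrix and secreted peptide handling included the widest range of the set. Fn1 (ENSMUSG00000026193, chr1:71585520-71653200, minus strand), which encodes fibronectin, measured 1.202, 3.83 and 81.7 CPM in controls, then 3040, 2443 and 1988 (acute), 4.45, 5.68 and 2.08 (remission) and 29.9, 7.63 and 22.8 (chronic). Control library 3 held nearly all of the control signal, and all chronic and remission libraries lay within the control range. Without that library, or by medians, the later levels of Fn1 were above control: log2 ratios were 0.69 in remission and 3.00 in the chronic phase without it, and 0.22 and 2.57 by medians. Fn1 is also on the list of monocyte and recruited macrophage markers, and its acute levels ran in the same order over libraries as the sum of the other 14 markers. Ece1 (ENSMUSG00000057530, chr4:137862237-137965229, plus strand), the endothelin-converting enzyme, measured 33.2, 34.4 and 40.3 CPM in controls, then 89.1, 76.5 and 91.6 (acute), 26.2, 20.1 and 26.4 (remission) and 15.2, 18.1 and 18.1 (chronic). The Ece1 groups did not overlap control in any phase, with means 2.38, 0.673 and 0.477 times the control mean in acute, remission and chronic mice. Csgalnact2, which starts and extends chondroitin sulfate chains, had 39.1 ± 3.6 CPM in controls, then 61.2 ± 5.84 (acute), 28.4 ± 6.44 (remission) and 27.4 ± 4.96 (chronic), and all acute libraries were above and all later libraries below control.

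Signalling and trafficking genes included a phosphatase, a calcium pump and an arrestin. Ptp4a1 (ENSMUSG00000026064, chr1:30940302-30949309, minus strand), a prenylated tyrosine phosphatase, measured 35.7, 30.6 and 39.7 CPM in controls, then 171, 72.3 and 53.7 (acute), 28.2, 18.6 and 24.3 (remission) and 39.9, 23.9 and 11.4 (chronic). Acute library 1 stood far above the other acute libraries, and chronic library 1 lay just above the highest control library. The annotation holds another gene of the same symbol that shares 70.8% of its exon bases, so reads of both copies may be split or dropped and the level is uncertain. Atp2a3 (ENSMUSG00000020788, chr11:72961169-72993044, plus strand), the SERCA3 calcium pump of the endoplasmic reticulum, measured 29.6, 37.3 and 37.4 CPM in controls, then 123, 96.1 and 71.05 (acute), 21.3, 12.4 and 16.6 (remission) and 16.99, 7.63 and 31.5 (chronic). Chronic libraries ranged from 7.63 to 31.5 CPM, the highest inside the control range. Arrdc3 (ENSMUSG00000074794, chr13:80883384-80896042, plus strand), an alpha-arrestin that sorts receptors for degradation, measured 40.1, 45.5 and 36.2 CPM in controls, then 137, 68.05 and 93.2 (acute), 30.7, 23.7 and 29.1 (remission) and 31.1, 24.3 and 16.8 (chronic). It kept every separation, with acute library 1 highest.

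Levels of Stat5a and Ppp2cb moved less. Stat5a, a transcription factor downstream of GM-CSF, had 42.5 ± 9.095 CPM in controls, then 56.2 ± 4.22 (acute), 28.5 ± 3.47 (remission) and 30.4 ± 9.29 (chronic), and Ppp2cb, a catalytic subunit of protein phosphatase 2A, had 50.5 ± 3.22 CPM in controls, then 65.9 ± 6.504 (acute), 36.1 ± 7.22 (remission) and 35.7 ± 3.298 (chronic). Both lay close to the acute bound of 1.3. Stat5a shares 72 exon bases, 1.0% of its exons, with Stat3 on the other strand, and Stat3 was at 216.7 CPM in control.

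Relatives of these genes were tested against control in the same fit. Arrdc4, another alpha-arrestin, rose from 20.9 ± 1.12 to 99.2 ± 16.6 CPM in acute libraries (adjusted p = 3.55e-07, log2 fold change 2.28 ± 0.25 SE). Its levels in remission and chronic libraries, 40.4 ± 11.1 and 36.02 ± 13.98 CPM, were above control, where Arrdc3 was below it, with adjusted p of 0.0139 and 0.0243. The remission call was lost without control library 1 or 2 or remission library 2 (adjusted p up to 0.0720), and the chronic call without any 1 control library or chronic library 2 (up to 0.244). Txnip, the best known alpha-arrestin, was at 451 ± 31.3 CPM in control and 395 ± 43.6 in acute libraries (adjusted p = 0.31). Txnip fell to 257 ± 11.9 CPM in remission (adjusted p = 0.000254, log2 fold change -0.76 ± 0.12 SE) and 207 ± 19.7 in the chronic phase (adjusted p = 4.54e-06, log2 fold change -1.05 ± 0.12 SE). Ptp4a2 rose in the acute phase, from 196 ± 11.9 to 303 ± 15.2 CPM (adjusted p = 0.000106, log2 fold change 0.66 ± 0.12 SE), and Ptp4a3 fell, from 107 ± 13.97 to 56.3 ± 8.02 CPM (adjusted p = 0.000232, log2 fold change -0.90 ± 0.17 SE). Marcks, the relative of Marcksl1, fell from 875 ± 29.97 to 328 ± 86.9 CPM (adjusted p = 2.97e-07, log2 fold change -1.39 ± 0.15 SE), and Evl, a relative of Vasp, from 154 ± 5.36 to 79.4 ± 3.15 CPM (adjusted p = 7.35e-05, log2 fold change -0.93 ± 0.16 SE). Enah, another relative of Vasp, rose from 5.12 ± 0.771 to 16.8 ± 7.24 CPM (adjusted p = 0.0323, log2 fold change 1.73 ± 0.62 SE). That call was lost in 6 of 18 alternatives (adjusted p up to 0.105). Myo1e, a class I myosin like Myo1g, rose in every phase and was at 30.6 ± 6.92 CPM in control and 172 ± 38.2 in chronic libraries (adjusted p = 8.65e-08, log2 fold change 2.57 ± 0.21 SE). Myo1f, another class I myosin, was at 497 ± 27.1 CPM in control and 384 ± 68.3 in acute libraries (adjusted p = 0.0539). It was not called in remission or the chronic phase either (adjusted p = 0.0707 and 0.879). The called directions of the relatives named here were the same under every alternative fit and with all counts in the totals.

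**Figure D3:**
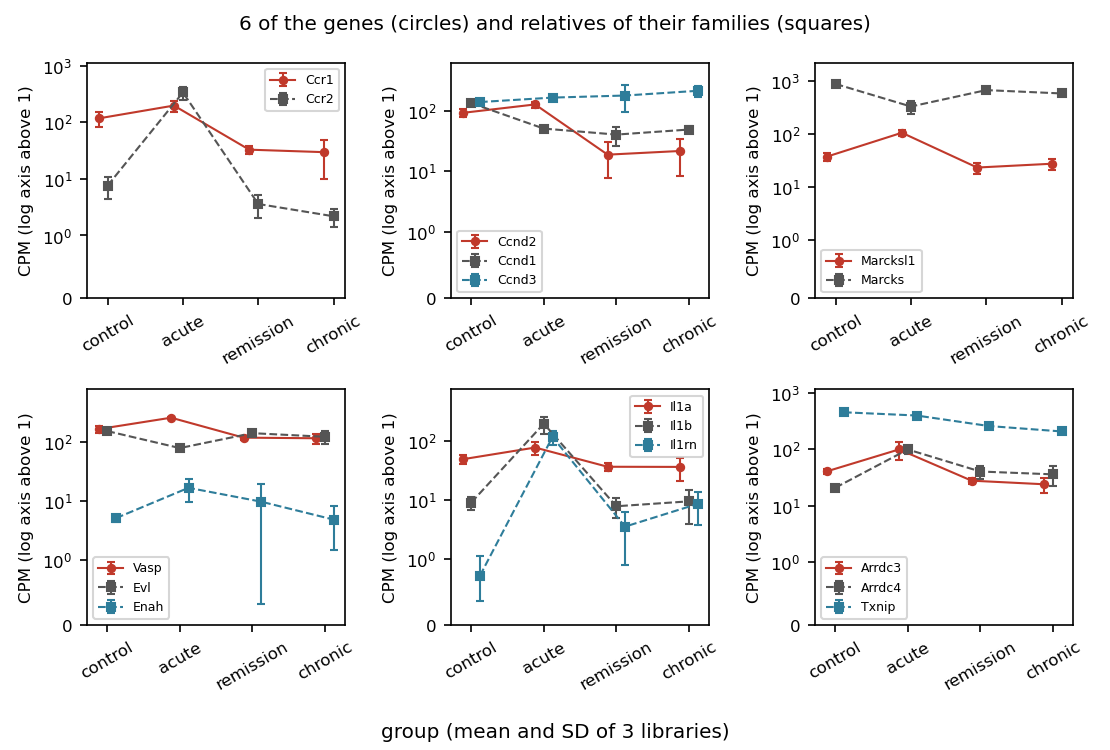
Mean and SD (n = 3) of CPM by group for 6 of the 36 genes (red circles) and relatives of their families (grey and blue squares), on an axis that is logarithmic above 1 CPM. Marcks and Evl are lower in acute libraries where Marcksl1 and Vasp are higher, and Enah, another relative of Vasp, is higher there too. Ccnd1 is lower in all phases where Ccnd2 is above control in the acute phase alone.

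Nuclear and cell cycle genes included Ccnd2, whose mean over both later phases was the lowest of the 36 relative to control. Ccnd2 (ENSMUSG00000000184, chr6:127125162-127152193, minus strand), cyclin D2, which takes cells from G1 towards S phase with CDK4 or CDK6, measured 109, 85.2 and 85.2 CPM in controls, then 136, 138 and 112 (acute), 9.89, 31.5 and 15.2 (remission) and 7.03, 25.3 and 32.9 (chronic). No phase overlapped the control libraries, and the later means were 0.202 and 0.233 times control. Ccnd1 was lower than control in every phase, at 135 ± 15.2 CPM in controls, 51.1 ± 6.37 in the acute group (adjusted p = 1.08e-05, log2 fold change -1.37 ± 0.20 SE), 40.7 ± 13.96 in remission (adjusted p = 7.91e-06) and 49.3 ± 6.34 in chronic libraries (adjusted p = 4.11e-05). For Ccnd3 no difference from control passed the test, with means of 141, 167, 181 and 217 CPM in the same order.

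Lbr (ENSMUSG00000004880, chr1:181815335-181843046, minus strand), the lamin B receptor of the inner nuclear membrane, which also carries a sterol reductase activity, measured 68.9, 66.5 and 74.2 CPM in controls, then 148, 126 and 102 (acute), 32.1, 21.7 and 31.9 (remission) and 29.3, 29.6 and 69.1 (chronic). All acute libraries were above control and all remission libraries below it, and chronic library 3 was inside the control range. Klf2 (ENSMUSG00000055148, chr8:72319033-72321656, plus strand), a zinc finger factor that restrains inflammatory genes in myeloid cells, measured 14.4, 12.9 and 20.4 CPM in controls, then 29.5, 18.9 and 18.2 (acute), 1.48, 1.03 and 18.03 (remission) and 1.76, 2.86 and 20.8 (chronic). Remission library 3 and chronic library 3 were in or above the control range while the other later libraries were at most 2.86 CPM. A list of 28 other immediate-early and handling-response genes summed to 5970 CPM in remission library 3 against 1514 and 1614 in the other remission libraries, and to 2250 in chronic library 3 against 1159 and 2263. Its part in the Klf2 level was not tested.

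Hmga1 and Tshz1 had lower counts and wider spread. Hmga1, an architectural chromatin protein of the AT-hook kind, had 15.7 ± 2.85 CPM in controls, then 36.1 ± 11.2 (acute), 10.6 ± 3.82 (remission) and 10.3 ± 1.51 (chronic), and Tshz1, a teashirt zinc finger factor, had 19.5 ± 5.09 CPM in controls, then 29.2 ± 9.14 (acute), 13.1 ± 4.25 (remission) and 13.6 ± 1.92 (chronic). Acute library 3 of Tshz1 lay within the control range, and so did 2 remission and 2 chronic libraries.

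Metabolic genes were few. Hk1, the hexokinase bound to mitochondria, had 44.5 ± 6.47 CPM in controls, then 70.04 ± 5.25 (acute), 24.5 ± 2.63 (remission) and 30.7 ± 2.703 (chronic), with every separation kept, whereas Hk2 had 383 CPM in control and 333 in acute libraries (adjusted p = 0.363). Hk3 was called higher in the acute phase, at 188 ± 15.1 CPM in control and 313 ± 90.01 in acute libraries (adjusted p = 0.0494, log2 fold change 0.77 ± 0.29 SE), a call lost in 12 of 18 alternatives (adjusted p up to 0.187). Gclm, the modifier subunit of the enzyme that limits glutathione synthesis, had 19.6 ± 7.01 CPM in controls, then 38.5 ± 9.37 (acute), 14.4 ± 0.487 (remission) and 15 ± 4.78 (chronic). Remission libraries 1 and 2 of Gclm (14.83 and 14.45 CPM) and chronic library 1 (20.51 CPM) lay in the control range. Remission library 3 was level with the lowest control library, at 13.87 CPM. Gclm failed the conditions with TMM scaling, with DESeq2 size factors and by medians. Gclc, the catalytic subunit of the same enzyme, was at 61.8 ± 5.96 CPM in control and 53.01 ± 15.7 in acute libraries (adjusted p = 0.471).

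The remaining genes are less well known. Fam107b, a stress-associated protein, had 50.8 ± 9.56 CPM in controls, then 84.1 ± 11.02 (acute), 23.2 ± 5.05 (remission) and 26.4 ± 1.04 (chronic), with no overlap of control by any phase. Ncoa7, a nuclear receptor coactivator with a TLDc domain, had 26.2 ± 2.17 CPM in controls, then 38.03 ± 13.3 (acute), 16.8 ± 0.912 (remission) and 18.3 ± 4.86 (chronic), and Thap12, a THAP-type zinc finger protein, had 36.4 ± 3.23 CPM in controls, then 48.2 ± 7.29 (acute), 26.7 ± 10.8 (remission) and 23.1 ± 4.08 (chronic). Acute library 1 of Ncoa7 (26.7 CPM) and remission library 2 of Thap12 (38.7 CPM) lay in the control range. The uncharacterised gene 6430548M08Rik had 26.1 ± 5.19 CPM in controls, then 50.3 ± 13.7 (acute), 18.8 ± 4.27 (remission) and 15.04 ± 2.75 (chronic). Rtl5 (ENSMUSG00000049191, chrX:102066544-102071304, minus strand), derived from a retrotransposon, measured 20.4, 12.9 and 29.2 CPM in controls, then 41.1, 18.2 and 27.6 (acute), 7.42, 11.4 and 12.5 (remission) and 2.93, 5.73 and 8.72 (chronic). It lies inside the span of Nhsl2 on the opposite strand of chromosome X without sharing exon bases, and its chronic mean was 0.278 times control. As the protocol names no step that keeps strand, unspliced Nhsl2 RNA and Rtl5 RNA cannot be told apart there.

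**Figure D4:**
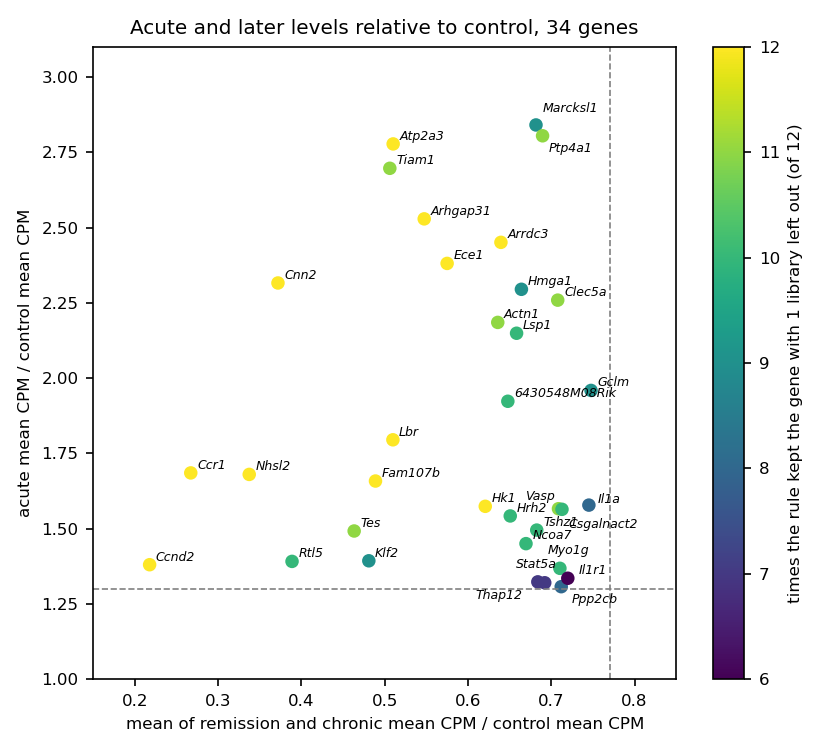
Acute mean over control mean (vertical) against the mean of the remission and chronic means over control (horizontal) for 34 of the 36 genes, without Fn1 (86.1), coloured by how often the gene met the conditions with 1 of 12 libraries left out. Dashed lines mark 1.3 and 0.77, and Il1r1, kept in 6 of the 12, lies near the acute line.

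Chronic and remission libraries were compared by test. As both means had to lie below the same control bound, the test is not independent of the selection, and nothing is read from its counts. None of the 36 genes passed it by edgeR in either direction (adjusted p under 0.05), against 1.14% of the 12536 genes higher and 0.263% lower in chronic than remission, 176 genes in all. At an unadjusted p under 0.05 there were 4, and DESeq2 called 1 and limma-voom none. Tes had a higher chronic mean, 22.3 against 9.7 CPM, with no overlap of libraries (adjusted p = 0.0504, log2 fold change 1.27 ± 0.32 SE), and its adjusted p ran from 0.00199 to 0.171 over 19 alternatives. It was under 0.05 in 5 of them: by DESeq2, without the filter on low counts, and without acute library 1, acute library 3 or chronic library 1. Tiam1 had a lower chronic mean, 10.1 against 21.4 CPM (adjusted p = 0.182, log2 fold change -1.10 ± 0.40 SE), with adjusted p from 0.0117 to 0.372, under 0.05 only without the filter on low counts. Nhsl2 (adjusted p = 0.278, log2 fold change -0.79 ± 0.36 SE) and Ece1 (adjusted p = 0.303, log2 fold change -0.46 ± 0.22 SE) had lower chronic means too, with adjusted p from 0.112 to 0.644 and from 0.217 to 0.570. Over the set, 20 log2 fold changes were positive and 16 negative, with a median of 0.08 beside -0.01 over all genes. For Fn1 the difference was wide and imprecise (adjusted p = 0.57, log2 fold change 2.22 ± 1.61 SE).

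**Figure D5:**
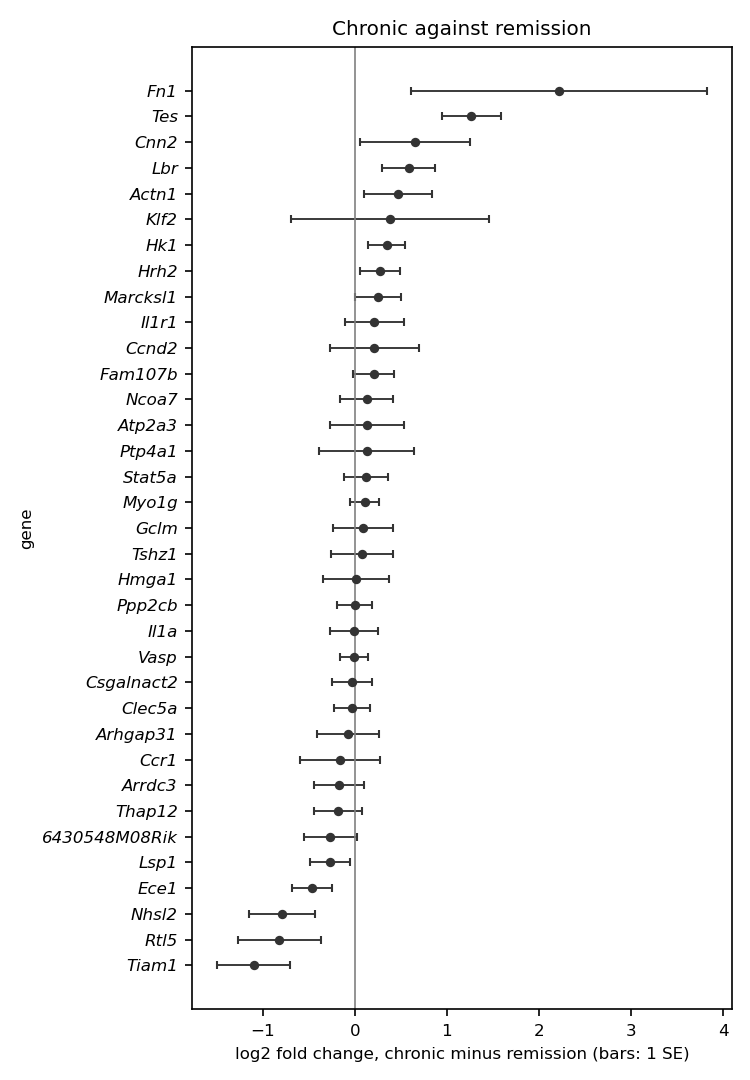
Log2 fold change of chronic minus remission libraries (edgeR, bars of 1 SE) for 35 of the 36 genes. Values run from -1.10 (Tiam1) to 2.22 (Fn1), and none had an adjusted p under 0.05.

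Within the acute group, library 1 had the most genes of the set above their acute mean and library 3 the fewest. Of the 36 genes, 32 were above their acute mean in acute library 1, 20 in library 2 and 7 in library 3, on a log2(CPM + 1) scale. The monocyte marker sum without Fn1 had the same order, 3825, 3236 and 2598 CPM, and the homeostatic sum the opposite order, 8781, 10030 and 13070 CPM. Other marker sums had other orders: 230.2, 234.3 and 146.8 CPM for T and NK cells, 218.6, 296.8 and 176.0 for border macrophages, 818.2, 1535 and 742.8 for neutrophils, and 1628, 1207 and 1336 for oligodendrocytes. Summed without Fn1, the set made up 3531, 2975 and 2641 CPM in these libraries, 1606 to 1771 in control, 955.9 to 1031 in remission and 866.7 to 1187 in chronic libraries. Oligodendrocyte markers summed to 1919 CPM in remission library 1 against 194.1 and 383.4 in the others, where the summed level of the set without Fn1 was 1031 against 955.9 and 1020.5 CPM. Deviations from group means gave a median Pearson correlation of 0.10 over 630 pairs of the genes, beside 0.009 over all pairs of genes at the control minimum, from -0.79 for Arrdc3 with Ncoa7 to 0.96 for Atp2a3 with Tiam1. These are descriptions over 12 libraries that share depth and cell makeup.

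Gene structure was compared with no test. Median exon length was 5486 bases against 5235 for genes at the control minimum, gene span 27894 against 28109 bases, and 9.5 exon blocks against 11. The genes lie on 16 chromosomes, with 4 each on chromosomes 1 and 6, and promoter windows had a median GC content of 64.2% against 62.0%. Hmga1 has near-identical copies elsewhere in the mouse genome, and its level is uncertain for that reason. It also shares 102 exon bases, 4.8% of its exons, with AI413582 on the other strand. AI413582 was at 17.79 CPM in control, and the library protocol names no step that keeps strand.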

How the data were processed

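RNA of sorted spinal cord microglia was reverse transcribed with random hexamers, made into Nextera XT libraries and read once per fragment, per the labels' protocols. The authors deposited raw read counts per gene, and the submitters' processing notes name HISAT2, SAMtools 1.3.1, Picard 2.6.4, HTSeq 0.6.1 and the GRCm38 build without settings. Genes were matched by identifier to GENCODE M21 (48144 of 48526).

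Levels are CPM over counts without 37 mitochondrially encoded genes and 6 features (CT010467.1, Gm15564, Gm23935, Gm26917, Lars2 and Mir6236). One model of the 4 groups was fitted to 12536 genes with edgeR 4.0.16 (filterByExpr, TMM, robust quasi-likelihood) in R 4.3.3, with Benjamini-Hochberg adjustment. The script was tested on simulated data. DESeq2 1.42.0 and limma-voom (limma 3.58.1) were alternatives, with other scalings, filters, totals, the number in the titles as a covariate and each library left out. Nothing in the labels beyond the stated number of mice says how independent the 3 libraries of a group are. The p-values of the main fit compare a difference between groups with the spread between libraries within groups. That spread is estimated over all 4 groups and moderated across genes.

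The genes and lists were chosen with earlier results of these data known. Libraries are given singly for the 8 genes with the highest acute ratio, the 8 with the highest control level, the 8 with the lowest later level and those on a described list. The values of 1 of the 36 genes are not reported here, though it is in the counts and medians over the set. From the described list, the 3 other genes with the smallest acute p were named. A list was described if it held 2 or more of the genes, and of 36 process lists only the actin list did. Promoter sequences are RefSeq's for GRCm38.p6.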

Additional observations from a re-analysis of the deposited data

How the results depend on the processing

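The number of genes meeting the conditions, 36, became 56 with medians in place of means, 66 with a control minimum of 5 CPM, 23 with a minimum of 30 CPM and 7 with ratios of 1.5 and 0.67. It ranged from 32 to 47 with 1 library left out, sharing 26 to 34 genes with the 36. TMM scaling gave 34 genes, 30 of them shared, and DESeq2 size factors gave 36, with 31 shared. In chronic against remission, the 36 genes held 1 higher call by DESeq2 and 1 higher and 1 lower without the filter on low counts, with 0 to 1 higher and 0 lower over left-out libraries. Genes called in that comparison, 176 in all, numbered 396 by DESeq2, 57 by limma-voom, 831 without the filter, 25 with only remission and chronic libraries in the fit, and 19 (without remission replicate 3) to 312 (without remission replicate 2) with 1 library left out. For the other actin list genes, left-out libraries gave 25 to 28 higher and 2 to 3 lower in the acute phase, 2 to 3 higher and 0 to 3 lower in remission, and 7 to 9 higher and 0 to 1 lower in the chronic phase. In chronic against remission, alternatives added after seeing the data gave 4 to 6 higher and 0 lower over other scalings and DESeq2. Left-out libraries gave 0 to 7 higher and 0 lower. Limma-voom called 3 higher, the fit of only remission and chronic libraries 1, and the fit without the filter on low counts 13. With the number in the titles as a covariate 6 were higher, and 0 were lower in each of these fits.

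Ratios of 35 of the 36 genes to control were computed under 16 alternatives, 1680 values in all, of which 1643 moved by less than the spread between replicates, 25 moved further and 12 changed sign. With all counts in the totals, acute log2 ratios were -0.039 for Myo1g, -0.047 for Ccnd2, -0.105 for Ppp2cb, -0.080 for Stat5a, -0.110 for Thap12, -0.026 for Rtl5, -0.091 for Il1r1 and -0.012 for Klf2. These changes follow from the larger share of the added features in acute libraries. Fn1 had log2 ratios of 0.22 in remission and 2.57 in the chronic phase by medians, and 0.69 and 3.00 without control replicate 3, while the other left-out libraries gave values down to -3.39 and -1.09. No paired analysis was possible because the replicate numbers only name the libraries, and the number in the titles, 1 or 2, is shared by several libraries of a group and is 1 in every chronic library. With that number as a covariate, 120 genes were called in chronic against remission, none of them among the 36. The calls of Coro1a in remission and of Hk3 and Enah in the acute phase were lost. Depth limits the genes with few counts: 16 of the 36 had fewer than 20 counts in at least 1 library.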
